A study of Mus musculus with 12 samples.

Results

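The genes of the mitochondrial ribosome were examined in RNA of PDGFRα+ stromal cells sorted from muscle and bone. Control mice were set against mice labelled as knockouts of estrogen receptor alpha in these cells. Genes were taken by name, as Mrpl (large subunit) or Mrps (small subunit) followed by a number and at most 1 letter, without pseudogenes. This gave 78 of the 25655 genes in each of the 2 tables, 49 named Mrpl and 29 named Mrps. Knockout samples carried the Cre driver PDGFRα-CreER and 2 floxed copies of Esr1, the estrogen receptor alpha gene. The Cre is switched on by tamoxifen and acts where the Pdgfra promoter is active. In muscle, 2 controls carried the Cre alone, and control replicate 3 carried the Cre with 1 floxed Esr1 allele. In bone, 2 controls carried the Cre alone, and control replicate 1 had no Cre but 2 floxed alleles. Each of the 4 groups had 3 samples. The muscle sort took PDGFRα+ cells that lacked CD45, CD31 and Vcam1. The bone sort had no Vcam1 gate. The series title names female mice, while ages and tamoxifen dosing were not found in the labels.

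Mitochondria keep a small genome of their own, whose messages encode core subunits of the respiratory chain. These are translated inside the organelle by a dedicated ribosome. Its RNAs come from the mitochondrial genome, whereas all of its proteins are encoded in the nucleus, made in the cytosol and imported. Many descend from bacterial ribosomal proteins, and others were added during the evolution of mitochondria.

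The names fitted the annotation that the authors deposited beside the values. Of the 78 genes, 77 carried a cellular component term naming a ribosome. The large mitochondrial subunit was named for 51 genes and the small subunit for 28, with 2 genes carrying both. Mrps18a and Mrps30 carried the large subunit term despite their names, and Mrpl42 carried the small subunit term as well as the large one. Mrps36, which encodes a protein now known as a subunit of the 2-oxoglutarate dehydrogenase complex, had no ribosomal term. By role there were 16 small subunit genes with a bacterial counterpart and 10 specific to mitochondria. The large subunit had 30 with a bacterial counterpart and 21 specific to mitochondria, and Mrps36 stood alone.

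All 78 genes are annotated as protein-coding in GENCODE vM21 (GRCm38). They lie on 17 chromosomes, with 11 on chromosome 11 and 8 on chromosome 17. The promoters were read because they are a shared feature that the names did not use. A RefSeq window (GRCm38.p6) from 250 bases before to 50 bases after the gene start was found for 69 of the 78 genes. The letters CCGGAAG, the core bound by ETS-family factors, occurred on either strand in 25 of these 69 windows (36.2%). They occurred in 9.12% of all 27025 windows of the same length. These 27025 windows were not filtered for protein-coding genes, whereas all 78 genes are protein-coding. GCGCATG, a core of the nuclear respiratory factor 1 site, occurred in 8 windows (11.6%, against 4.04% of all). ATGGCGG, a core of the YY1 site, occurred in 13 (18.8%, against 4.19%), and TATAAA, the TATA box, in 4 (5.80%, against 14.2%). All were searched on both strands. GCGCATG lay before the start in 8 genes and TATAAA in 4, but ATGGCGG in only 1. The other windows with ATGGCGG held it only across or after the start. Matches are descriptions of letters and not evidence of binding, and no overlaps between motifs were removed. In 17 genes the ETS letters lay before the start, and in 4 of these no annotated exon lay in the 250 bases shown. The 3 of these 4 with the highest level in muscle are printed 5′ to 3′ up to the base before the start, with the ETS letters in capitals.
Mrpl52: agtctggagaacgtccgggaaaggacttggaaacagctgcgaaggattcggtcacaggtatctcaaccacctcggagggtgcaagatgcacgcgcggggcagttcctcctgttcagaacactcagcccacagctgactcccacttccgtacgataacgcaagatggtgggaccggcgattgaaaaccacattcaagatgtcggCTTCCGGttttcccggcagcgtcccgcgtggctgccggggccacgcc
Mrpl34: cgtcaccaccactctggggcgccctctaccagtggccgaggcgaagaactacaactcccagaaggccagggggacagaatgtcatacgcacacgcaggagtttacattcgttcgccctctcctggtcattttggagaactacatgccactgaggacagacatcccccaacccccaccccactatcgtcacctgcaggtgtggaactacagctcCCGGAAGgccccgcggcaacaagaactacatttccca
Mrps22: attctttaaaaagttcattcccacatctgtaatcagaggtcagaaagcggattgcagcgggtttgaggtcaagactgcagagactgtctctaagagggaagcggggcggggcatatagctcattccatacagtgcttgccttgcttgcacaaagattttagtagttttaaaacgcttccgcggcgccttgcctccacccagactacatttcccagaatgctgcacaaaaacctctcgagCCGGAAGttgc
The Mrpl52 stretch lies at chr14:54426659-54426908 on the plus strand, that of Mrpl34 at chr8:71464676-71464925 on the plus strand, and that of Mrps22 at chr9:98601680-98601929 on the minus strand. These genes differed widely in the measurements below. Mrpl52 had the highest level of all 78 genes in bone, and Mrps22 was listed at 0 there.

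Every fold change, p, FDR and level given from here on is from the authors' deposited table of the tissue named. A level is whichever of a gene's knockout and control means was larger in the authors' deposited table, in a unit the headers do not name. Without a stated scaling for transcript length, the order of levels between genes is only that of the listed values. Log2 fold changes are knockout over control, and calls were made where the authors gave an FDR under 0.05. The smaller group mean is not listed, so an absolute log2 fold change above 5 is not an estimate of size. Values of single libraries could not be assigned to samples by their labels, so values per replicate, standard deviations and sequencing depth are not given. An approximate standard error was derived for each fold change from its deposited p, taking the fold change over its error as standard normal. Separate animals are not named for the replicates, so a p measures only how these samples spread, which may in part be technical. In each tissue the control replicates differed in genotype, so the control spread also holds differences between genotypes. In these bulk samples, fewer cells of a type and less RNA per cell cannot be told apart.

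The targeted gene and the markers of the sort set the frame for both tables. The authors' deposited tables listed Esr1 at 1.02 on the log2 scale in muscle (p = 0.404, FDR = 1.00) and of -2.69 in bone (p = 0.245, FDR = 0.440), so it was called in neither. The floxed exons are not named, and a 3′ tag can lie outside them, so this does not check the genotypes. Of 8 mesenchymal markers, all were above 0 in both tables, with levels of 162 to 13437 in muscle and 8.60 to 688 in bone. Pdgfra itself had a level of 494 in muscle and 8.60 in bone. Of the summed levels, 4 globin genes took 0.338% in muscle and 58.4% in bone. The 8 neutrophil markers summed to 34.4 in muscle, where Ltf and Elane were at 0, and to 12183 in bone, where none was at 0. The 3 chondrocyte markers had levels of 240 to 2040 in bone, and 2 of them were at 0 in muscle. RNA of Vcam1 had a level of 53.7 in muscle and 55.9 in bone, and the satellite cell genes Pax7 and Myf5 were at 0 in both. The 3 endothelial markers had levels of 0.302 to 11.9 in muscle, and 2 of them were at 0 in bone.

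Mitochondrial ribosomal protein genes were expressed at moderate levels in muscle and at lower listed levels in bone. In muscle the 78 levels ran from 0.553 to 229, with a median of 24.2 and an interquartile range of 16.6 to 50.4, in the authors' deposited table. The authors' deposited bone table had them from 0 to 158, with a median of 13.2 and an interquartile range of 3.99 to 23.3. All 78 genes were above 0 in muscle and 70 in bone. Over all genes the median was 0.128 in muscle, where 48.7% were at 0, and 0 in bone, where 59.0% were at 0. The tables were normalized separately, and globin transcripts took a large share of the bone table, so the distance between the medians was not tested.

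The 2 genes with the highest levels were the same in both tables. Mrps21, a small subunit protein with a bacterial counterpart (chromosome 3, 95862634 to 95871519, GRCm38), ranked first in muscle with a level of 229 and second in bone with 85.2. Mrpl52, a large subunit protein found only in mitochondria (chromosome 14, 54426909 to 54429756), ranked second in muscle with 122 and first in bone with 158. Mrpl33, which encodes the counterpart of bacterial ribosomal protein L33, followed in muscle with 122, and Mrpl42, of the mitochondria-specific set, with 103. In bone the next levels belonged to Mrpl57, another mitochondria-specific large subunit gene, with 75.3 and to Mrpl24, the counterpart of L24, with 67.4. Neighbours in this order cannot be ranked beyond their spread, because no spread is given for a level. Across the 78 genes, which share libraries within a table, Spearman's rho between muscle and bone levels was 0.596. Over all genes above 0 in at least 1 table it was 0.532.

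**Figure D1:**
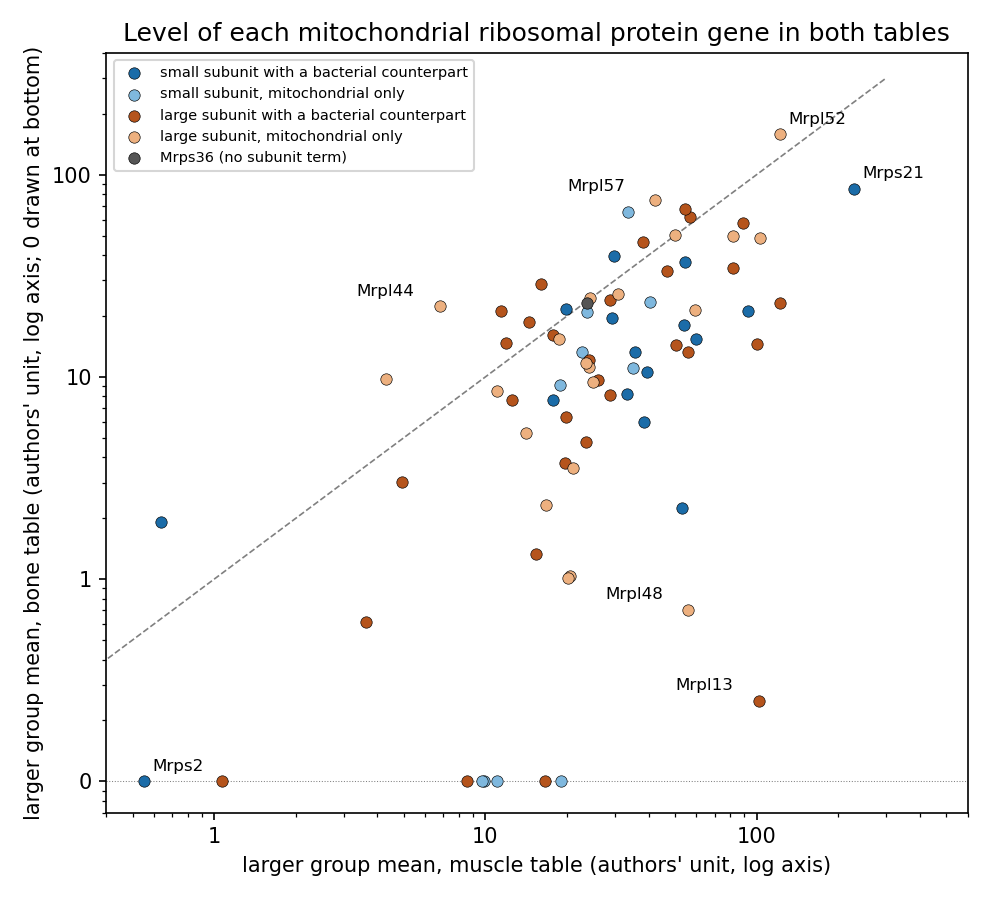
Level of each of the 78 mitochondrial ribosomal protein genes in the muscle table (x axis) and in the bone table (y axis), on log axes in the authors' unnamed unit, coloured by subunit group. The dashed line marks equal values, points on the bottom line are at 0 in bone, and Mrpl13 sits at 102 in muscle and 0.251 in bone.

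Single genes stood far apart between the tables. Mrpl13, which encodes the counterpart of bacterial L13 (chromosome 15, 55534094 to 55557748), ranked next after Mrpl42 in muscle with a level of 102. In the authors' deposited bone table its level was 0.251, the lowest above 0. Mrpl48, a mitochondria-specific large subunit gene picked after its values were seen, had 56.1 in muscle and 0.706 in bone. For Mrpl44, a large subunit protein with a ribonuclease-like fold, the listed level was lower in muscle (6.77) than in bone (22.4). By the sign of its log2 fold changes, -1.87 in muscle and 9.53 in bone, these are a control mean and a knockout mean. Unlike groups are therefore set side by side, and the order of the tissues within controls is not given. Mrpl13 and Mrpl48 also had fold changes of opposite sign in the 2 tissues, so the same limit holds for them. Mrpl19, the counterpart of L19, was low in both authors' deposited tables, with 3.64 and 0.613. In muscle the lowest levels were those of Mrps2, the counterpart of S2, with 0.553 and Mrps9, the counterpart of S9, with 0.638. Whether these gaps between the tables exceed the spread between samples was not tested.

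The 8 genes listed at 0 in bone came mostly from the small subunit. They were Mrps2, Mrps18b, Mrps22, Mrps27 and Mrps31 of the small subunit and Mrpl1, Mrpl28 and Mrpl55 of the large subunit. Of the 10 mitochondria-specific small subunit genes 4 were at 0, against 1 of the 16 with a bacterial counterpart. Of the large subunit genes, 3 of 30 with a bacterial counterpart and 0 of 21 mitochondria-specific ones were at 0. In muscle these 8 genes had levels of 0.553 to 18.9, the highest being that of Mrps22. A gene at 0 here is only listed at 0, since the depth behind it is not given.

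The Mrps18 genes form a family of 3 paralogs, of which Mrps18b and Mrps18c encode small subunit proteins and Mrps18a a large subunit protein. Their levels in the authors' deposited muscle table were 24.9 for Mrps18a, 11.0 for Mrps18b and 54.0 for Mrps18c. In bone they were 9.40, 0 and 18.2 in the authors' deposited table, so Mrps18c had the highest level in both. The muscle log2 fold changes that the authors deposited were -1.71, -0.74 and 0.57 in the same order (p = 0.346, 0.705 and 0.550). In bone Mrps18a had 6.19 (p = 0.0110, FDR = 0.0784) and Mrps18c 0.66 (p = 0.782, FDR = 0.908) in the authors' deposited table. None of these was called.

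In muscle, no mitochondrial ribosomal protein gene was called between knockout and control. All 78 genes had a p and 65 had an FDR. None passed an FDR of 0.05 in the authors' test, which the sources used here do not name, while 9 of 7107 genes (0.127%) passed in the whole table. At an FDR of 0.1 the count was also 0, against backgrounds of 0.0844% higher and 0.0985% lower. The unadjusted p was under 0.05 for 1 gene that was higher and 1 that was lower, where 6.41% of all genes were higher and 5.31% lower at that p. The smallest FDR was 0.772. Fold changes were split evenly, with 39 genes above 0 and 39 below, beside 53.5% above 0 among all genes with a p. Their median log2 fold change was 0.03, with an interquartile range of -0.53 to 0.69, beside a median of 0.12 over all 13158 genes with a p.

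The muscle genes with the smallest p were scattered over both subunits. Mrps10, which encodes the counterpart of bacterial S10 (chromosome 17, 47368887 to 47381417), was listed by the authors at -3.29 on the log2 scale, with an approximate standard error of 1.60 (p = 0.0399, FDR = 0.772). Its level was 39.4. Mrps31, a mitochondria-specific small subunit gene (chromosome 8, 22411361 to 22429665), was listed by the authors at 7.70 with an approximate standard error of 3.27 (p = 0.0186) at a level of 9.75, and no FDR. The smaller group mean is not listed, so this value is not an estimate of size. It was the only muscle gene of the 78 with an absolute log2 fold change above 5.

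Other genes that the authors listed on the higher side in muscle were Mrpl35, the counterpart of L35, with 3.22 (p = 0.0613), and Mrpl19 with 4.34 (p = 0.0687). The authors listed Mrps12, which encodes the counterpart of the decoding-site protein S12, at 2.76 (p = 0.0966), and Mrps26, specific to mitochondria, 2.42 (p = 0.184). On the lower side the authors listed Mrpl28, the counterpart of L28, at -2.83 (p = 0.174) at a level of only 1.07. Further values of the authors were -1.37 for Mrpl34 (p = 0.237), -0.68 for Mrpl33 (p = 0.252) and -1.38 for Mrpl18, the counterpart of L18 (p = 0.260). None of these 8 genes was called.

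The best expressed genes gave the tightest values in muscle. The authors listed Mrps21 at -0.43 with an approximate standard error of 0.42, Mrpl52 at -0.02 with 0.59, and Mrpl42 at 0.92 with 0.71 (p = 0.311, 0.966 and 0.191). Among the 21 genes with a level of at least 50, fold changes lay between -1.37 and 1.25 in the authors' deposited table. At the median error of those genes, a log2 fold change of 1.71 would be needed for an unadjusted p of 0.05, and over all 78 genes it was 3.20. Smaller differences were therefore not detectable for most of these genes.

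**Figure D2:**
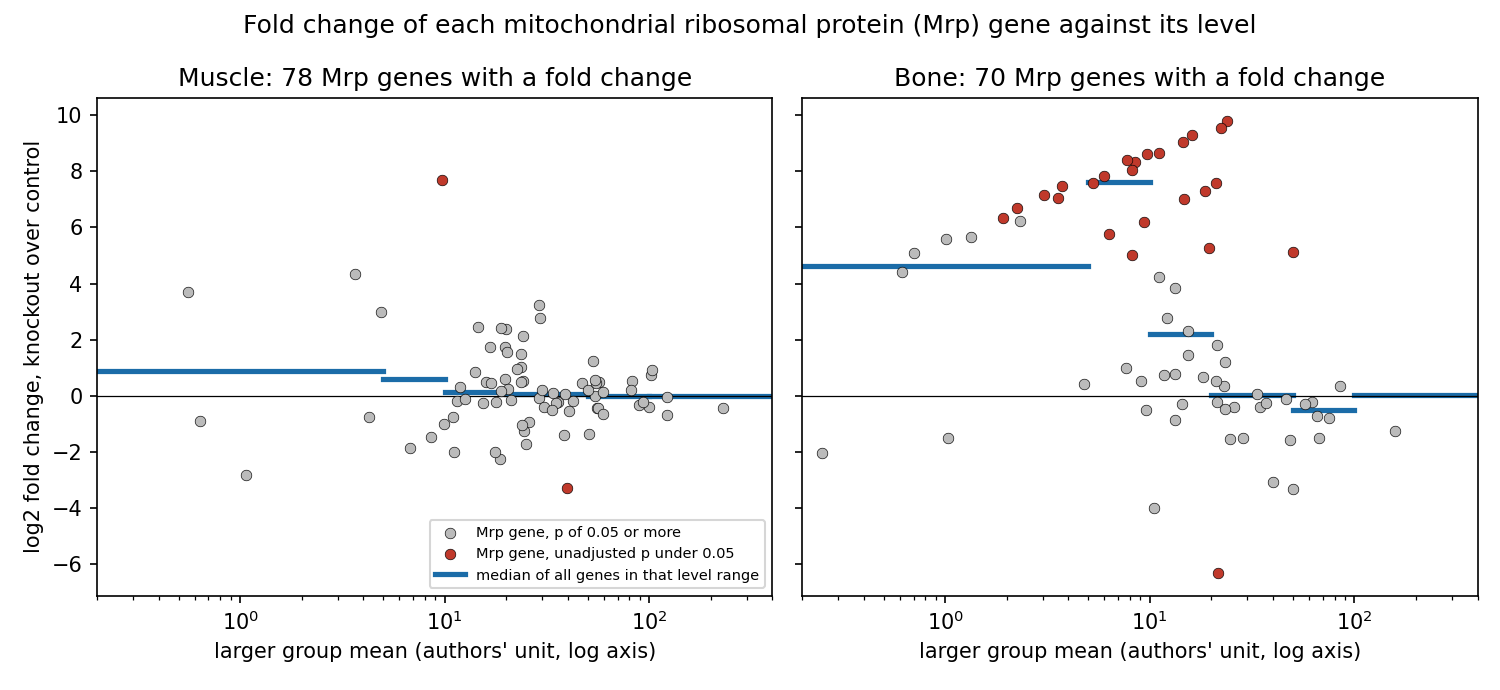
Log2 fold change of knockout over control (y axis) against level (x axis, log scale, authors' unit) for the 78 genes with a fold change in muscle (left) and the 70 in bone (right). Red points have an unadjusted p under 0.05 and blue bars give the median of all genes in the same range of levels. In muscle the points scatter around 0, and in bone those with levels up to 20 lie mostly above it, many of them along 1 rising line.

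By subunit group, muscle medians stayed close to 0. Small subunit genes with a bacterial counterpart had a median log2 fold change of 0.11, with 9 of 16 above 0, and the mitochondria-specific ones -0.08, with 5 of 10 above 0. Large subunit genes had medians of 0.15, with 15 of 30 above 0, and of -0.13, with 9 of 21 above 0, in the same order. Mrps36 had 0.49 (p = 0.779) in the authors' deposited table.

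In bone, no mitochondrial ribosomal protein gene was called either, and fold changes above 0 were about as frequent as over the whole table. Of the 78 genes, 70 had a p and 64 an FDR. None passed an FDR of 0.05 in the authors' test, where 3 of 8534 genes (0.0352%) passed in the whole table. The unadjusted p was under 0.05 for 24 higher genes and 1 lower gene. That is 35.7% of the 70, beside 33.0% of all 10518 genes with a p (28.8% higher and 4.2% lower), so the share was near the background. In all, 46 of the 70 genes (65.7%) were above 0 and 24 below, beside 69.7% above 0 among all genes with a p. Their median log2 fold change was 1.32, with an interquartile range of -0.37 to 6.61, beside a median of 2.51 over all genes with a p.

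The bone gene with the smallest p was Mrpl12, which encodes the counterpart of the stalk protein L7/L12 that contacts translation factors (chromosome 11, 120484613 to 120489065). The authors listed it at 7.60 on the log2 scale, with an approximate standard error of 2.45 (p = 0.00194, FDR = 0.0784), at a level of 21.1. The authors gave 9.80 for Mrpl17, the counterpart of L17 (p = 0.00256), and 7.31 for Mrpl32, a counterpart of L32 whose precursor is matured by a mitochondrial protease (p = 0.00327). They were followed in the authors' table by Mrpl44 with 9.53 (p = 0.00428) and Mrpl21, the counterpart of L21, with 9.28 (p = 0.00433). All 5 shared the deposited FDR of 0.0784 and lay at levels of 16.1 to 23.9. They belong to the large subunit. The smaller group mean is not listed, so these values are not estimates of size. Of all genes named Mrpl with a p in bone, 16 of 46 (34.8%) had an unadjusted p under 0.05. Of those named Mrps, 9 of 24 (37.5%) did.

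Genes on the lower side in bone were fewer. Mrps15, the counterpart of S15 (chromosome 4, 126046925 to 126055532), had -6.31 in the authors' deposited table with an approximate standard error of 2.67 (p = 0.0183, FDR = 0.0831). It was the only lower gene with an unadjusted p under 0.05. The authors also listed Mrps10 at -3.99 (p = 0.0994), Mrpl54, specific to mitochondria, at -3.32 (p = 0.160), Mrps17, the counterpart of S17, at -3.08 (p = 0.191) and Mrpl52 at -1.26 (p = 0.270). Mrps10 was thus below 0 in both tissues and called in neither.

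At an FDR under 0.1, 21 bone genes passed, 20 higher and 1 lower, where 28.1% of all genes with an FDR passed as higher and 4.14% as lower. Of these 21, 12 carried the tied FDR of 0.0784, a value shared by 1253 genes of the authors' deposited table. The 20 higher genes were 9 large subunit genes with a bacterial counterpart, 6 mitochondria-specific large subunit genes, 4 small subunit genes with a bacterial counterpart and 1 mitochondria-specific small subunit gene. In the same order, these groups held 24, 18, 15 and 6 genes with an FDR. The 21 genes had levels of 3.03 to 50.2 in the authors' deposited table. The same adjustment run over only the genes with a level of at least 10 called 7 of 45 at 0.05, all higher and each with an adjusted p of 0.0499. In the whole table that rule called 14.1% of genes in bone and 0.11% in muscle, where it called none of 68. Because a level is the larger group mean, a higher gene can enter this rule through its knockout mean alone.

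The positive fold changes in bone were concentrated at low levels, as in the rest of the table. Among the 25 genes with a level of at most 10, 22 (88.0%) were above 0, beside 84.3% of 5455 genes in that range. Among the 17 with a level above 10 to 20, 14 (82.4%) were above 0, beside 68.6%. Among the 28 with a level above 20, 10 (35.7%) were above 0, beside 47.5% of 3514 genes. The median log2 fold changes in these ranges were 6.19, 2.76 and -0.29 in the 70 genes and 4.99, 2.19 and -0.12 over all genes. In muscle the shares above 0 in the same ranges were 40.0%, 57.9% and 49.0%, beside 57.0%, 53.2% and 50.9%.

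**Figure D3:**
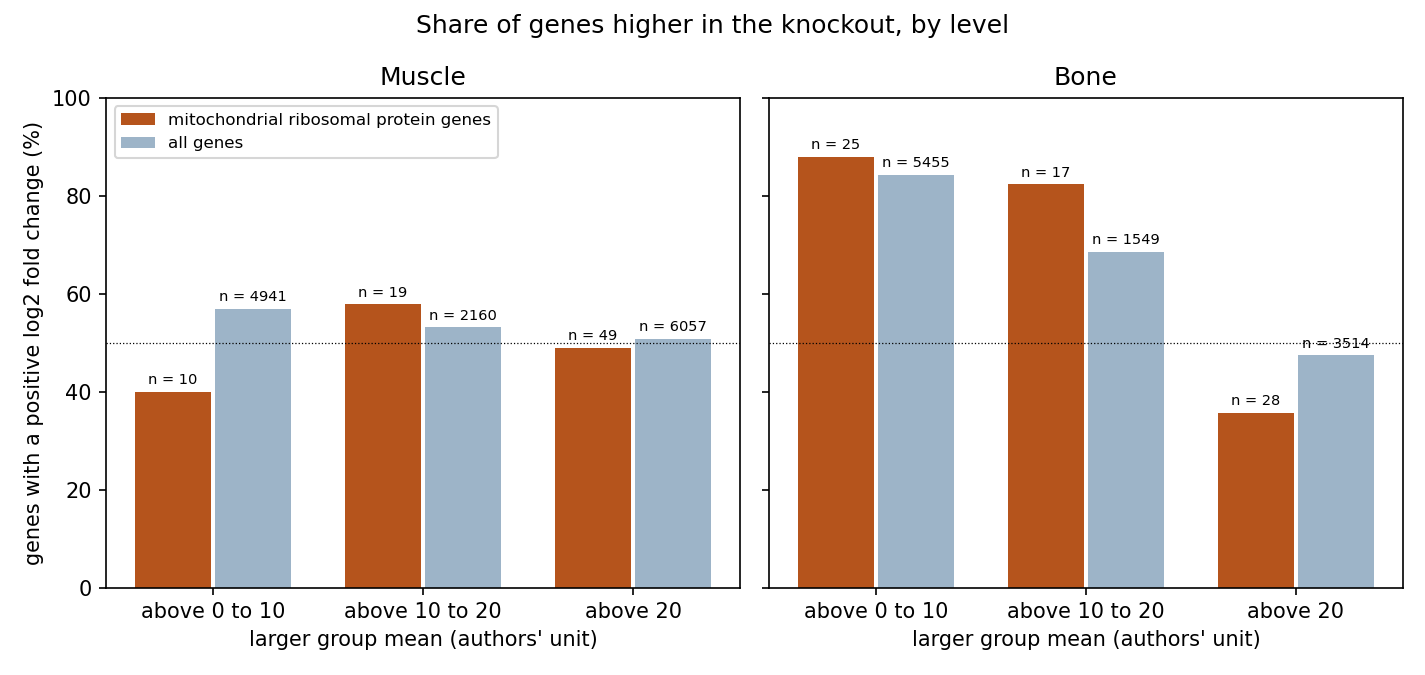
Percent of genes with a positive log2 fold change (y axis) in 3 ranges of level (x axis), for mitochondrial ribosomal protein genes (orange) and all genes (blue), in muscle (left) and bone (right), with the number of genes above each bar and a dotted line at 50%. In bone the share falls from 88.0% to 35.7% with level in these genes and from 84.3% to 47.5% in all genes.

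Large fold changes were frequent in bone and rare in muscle. An absolute log2 fold change above 5 was listed for 29 of the 70 bone genes (41.4%), 28 of them positive, beside 38.9% of all bone genes with a p. In muscle it was listed for 1 of 78 (1.28%), beside 12.9%. At the median error in bone, a log2 fold change of 4.75 would be needed for an unadjusted p of 0.05, and 3.71 for the 8 genes with a level of at least 50. Among these 8, the authors listed Mrpl51, a mitochondria-specific large subunit gene picked after its values were seen, at 5.11 (p = 0.0214, FDR = 0.0876). The lowest of the 8 in the authors' table was Mrpl24 at -1.51 (p = 0.438). Mrps21 had 0.37 with an approximate standard error of 1.33 (p = 0.783) in the authors' deposited table.

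By subunit group, the bone medians were further apart than in muscle. The mitochondria-specific large subunit genes had a median log2 fold change of 4.25, with 14 of 21 above 0, and the large subunit genes with a bacterial counterpart 1.01, with 18 of 27 above 0. The small subunit genes had 1.45, with 10 of 15 above 0, and 0.03, with 3 of 6 above 0 among the mitochondria-specific ones. Mrps36 had 1.19 (p = 0.594) in the authors' deposited table. The groups overlapped over most of their range, and the differences between them were not tested.

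**Figure D4:**
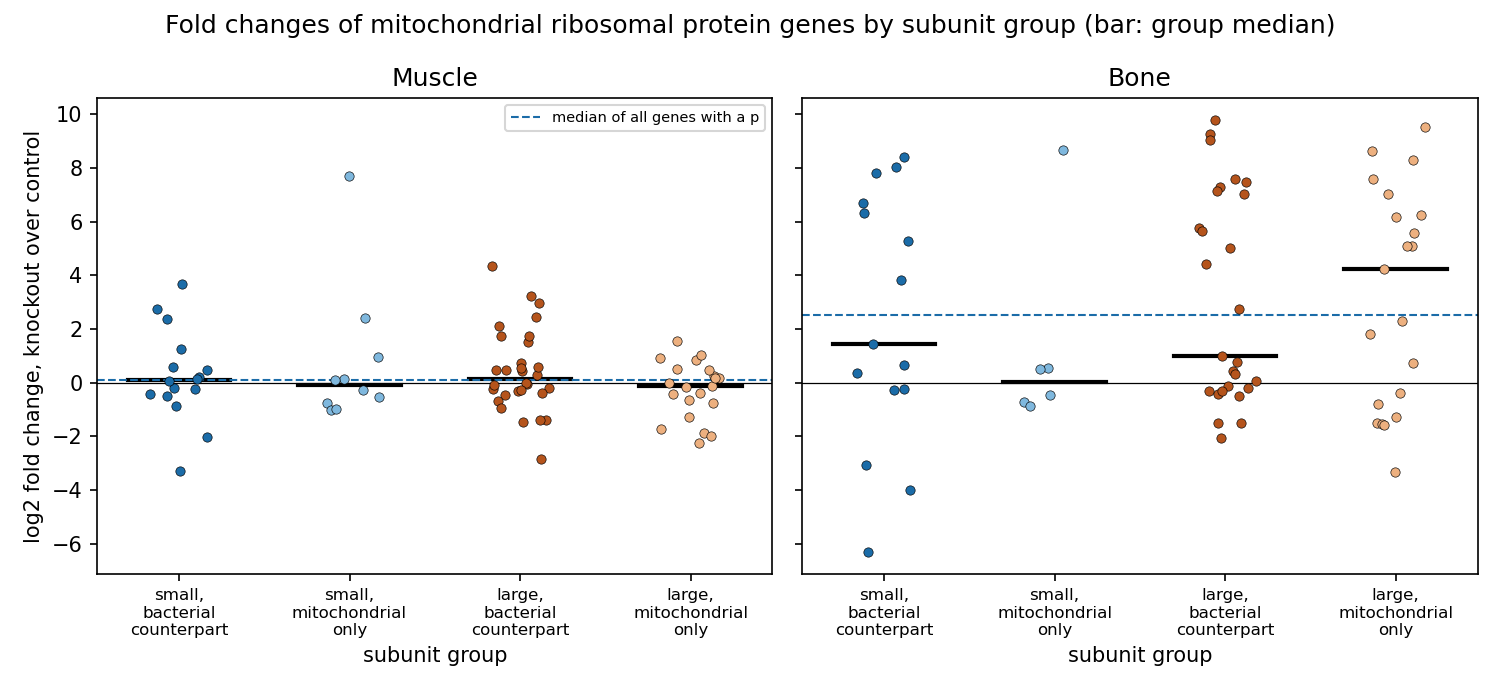
Log2 fold change of knockout over control (y axis) for each gene in 4 subunit groups (x axis), in muscle (left) and bone (right), with black bars at the group medians and a dashed line at the median of all genes with a p. Muscle medians lie between -0.13 and 0.15, and bone medians between 0.03 and 4.25.

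Markers of other cell types and of the sorted cells were read in the same comparisons. All 8 neutrophil markers were above 0 in bone, their median on the authors' log2 scale being 3.39. Of these, 7 had an unadjusted p under 0.05 and 1 was called. All 5 macrophage and leukocyte markers were also above 0 in bone, 3 with an unadjusted p under 0.05 and none called. Over all bone genes with a p, 69.7% were above 0 and 33.0% had an unadjusted p under 0.05. In muscle 3 of 6 neutrophil markers with a p were above 0, with a median of -1.30 and 1 at that p. Of the 5 macrophage and leukocyte markers, 3 were above 0 in muscle and none was at that p. The 5 erythroid markers lay between 0.74 and 1.03 in bone, with a median of 0.99 and none with an unadjusted p under 0.05. Of the 8 mesenchymal markers in bone, 4 were above 0 and 4 below, with a median of -0.34 and 1 with an unadjusted p under 0.05. In muscle all 8 mesenchymal markers were above 0, with a median of 0.62 and 4 with an unadjusted p under 0.05. The authors called 1 of them, the collagen gene Col1a2 (1.27, FDR = 0.00261). In muscle, 5 of 5 erythroid markers were below 0, with a median of -0.99, and 2 had an unadjusted p under 0.05. The 3 chondrocyte markers were below 0 in bone, with a median of -1.27 and none with an unadjusted p under 0.05. Only 1 of these 3 had a p in muscle, where it was above 0. The part of these cells in the values of the mitochondrial ribosomal protein genes was not tested.

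Fold changes of the 2 tissues are set side by side here for the 70 genes that had both. Of these, 23 were above 0 in both of the authors' deposited tables, 12 below 0 in both, 12 above 0 in muscle alone and 23 above 0 in bone alone. Across these genes Pearson's r between the fold changes was 0.01 and Spearman's rho -0.07. The genes share libraries within a tissue and are not independent replicates. The difference between the tissues was not tested.

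Other genes of mitochondrial translation were read from lists of subunits with other names, assembly factors and translation factors. None of their 45 genes was called in either tissue. Of 5 subunits with other names, 1 was above 0 in muscle and 5 in bone. In muscle the authors' smallest p among them belonged to Gadd45gip1, a large subunit protein (-0.94, p = 0.274), to Aurkaip1, a small subunit protein (-1.02, p = 0.275), and to Dap3, the GTP-binding small subunit protein (-1.18, p = 0.485). In bone the same 3 genes had 0.52, 2.47 and 6.67 (p = 0.752, 0.224 and 0.0336) in the authors' deposited table.

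Assembly and RNA modification factors had low levels, with medians of 6.28 for muscle and 0.0504 for bone, where 12 of 24 were at 0. In muscle 12 of 23 with a p were above 0, and 5 (21.7%) had an unadjusted p under 0.05, beside 11.7% of all genes. In bone 9 of 12 with a p were above 0, and 5 (41.7%) had an unadjusted p under 0.05, beside 33.0% of all genes. In muscle the authors listed Dhx30, an RNA helicase of ribosome assembly, at 6.64 (p = 0.000707, FDR = 0.171). There the authors also listed Rpusd4, a pseudouridine synthase, at 7.88 (p = 0.0186), and Mettl17, a methyltransferase-like assembly factor, at -7.16 (p = 0.0254). In bone Malsu1, a large subunit assembly factor, had 8.95, Rbfa, a small subunit assembly factor, 8.29, and Mterf4, which acts in large subunit assembly, -8.09 (FDR = 0.0784, 0.0784 and 0.0796). Among translation factors, 1 of 16 in muscle (6.25%) and 4 of the 11 with a p in bone (36.4%) had an unadjusted p under 0.05, beside the same 11.7% and 33.0% of all genes. The smallest p of the authors in muscle was that of Pdf, the peptide deformylase (-7.05, p = 0.0276), with Mtrf1l, a release factor, at -3.65 (p = 0.127) and Mtif3, an initiation factor, at 2.77 (p = 0.222). In bone Slirp, an RNA-binding partner of Lrpprc, had 10.73, Oxa1l, the inner membrane insertase, 8.69 and Gfm1, an elongation factor, 8.27 (FDR = 0.0784, 0.0784 and 0.0787). None of these passed in the authors' deposited tables. Bone levels were 12.9 for Malsu1, 7.58 for Rbfa, 17.5 for Mterf4, 44.8 for Slirp, 9.98 for Oxa1l and 9.67 for Gfm1. Pdf had a level of 6.63 in muscle. Absolute log2 fold changes above 5 are not estimates of size here either.

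Some values carry uncertainty from shared sequence. The last 200 nt of a transcript matched another gene at 95% identity or more over at least 100 nt for 16 of the 78 genes, and for 11 of them only pseudogenes were matched. Mrps10, Mrps21, Mrps18b, Mrps18c, Mrpl23 and Mrpl48 are among those 11. For 5 genes, Mrpl20, Mrpl27, Mrpl36, Mrpl40 and Mrpl53, at least 1 matched gene is itself in the tables. The match of Mrpl53 was Gm42688, a coding gene in the tables with 100% identity over 200 nt. Mrpl20, with levels of 89.2 in muscle and 57.6 in bone, matched by far the most genes. The last 200 bases of 8 genes overlapped an exon of another gene in GENCODE vM21, among them Mrpl24, Mrpl19 and Mrps18b, and in 2 of the 8 the other gene lay on the same strand. How the authors treated reads shared between genes, and whether strand was used, is not stated in the labels or headers.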

How the data were processed

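Libraries of 12 samples were made with a QuantSeq 3′ mRNA kit, per the labels' protocols, which reads the ends of polyadenylated transcripts. GRCm38 and mm10 are the builds in the submitters' processing notes. Which aligner, counter and test were used is not given in these sources. Log2 fold changes and p-values, unadjusted and adjusted (FDR and Bonferroni), were made by the authors, per the file headers. The level is a deposited score, the larger group mean of a gene, whose unit the headers do not name. The deposited signed fold was used only to check the log base. The tables hold 48 further columns of values per library, named by laboratory codes that match no label, and these were not used. The planned count-based tests on samples were therefore not run, and the authors' comparison took their place. Depth per sample is not given for the same reason.

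The 78 genes, the lists and the rule for named genes were chosen with earlier results of these data known. The rule named Esr1, the 5 genes of smallest p in each direction, the 4 highest and 2 lowest levels above 0, genes with no p, the Mrps18 family, genes past FDR 0.05, and 3 genes of each other list. The threshold was a deposited FDR under 0.05. A recomputed Benjamini-Hochberg adjustment differed from that FDR by at most 0.000995 (muscle) and 0.000142 (bone). Only the adjustment and the approximate standard error were tested on simulated data, which were drawn from a normal model with planted effects several times their error. The other steps were not tested in this way. File coordinates equalled GENCODE vM21 for 1 of 78 genes, though all 78 gene lengths did, so coordinates are given from GENCODE vM21 by Ensembl identifier. Sequence matches used blastn 2.17.0, and other steps Python 3.11.15 with pandas 2.3.3 and scipy 1.17.1. All 45 genes of the other lists and all marker genes matched by name.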

Additional observations from a re-analysis of the deposited data

How the results depend on the processing

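In muscle the count of called genes stayed at 0 under an FDR of 0.1, the adjustment over all genes with a p, the Bonferroni p, and the adjustment over genes with a level of at least 10. In bone it stayed at 0 over all genes with a p and with the Bonferroni p. A Bonferroni p is never below the FDR, so in both tissues its count could only be 0 and adds no check. The bone count was 21 at an FDR under 0.1 and 7 over genes with a level of at least 10, namely Mrpl12, Mrpl16, Mrpl17, Mrpl21, Mrpl23, Mrpl32 and Mrpl44. Of these, Mrpl16 and Mrpl23 were named after their values were seen. The last setting tests fewer genes, and a higher gene can enter it through its knockout mean alone. It called 14.1% of such genes in the whole bone table. At an FDR under 0.1, 28.1% of all bone genes with an FDR passed as higher and 4.14% as lower. The bone median log2 fold change of 1.32 was 0.34 for genes with a level of at least 10 and -0.51 for those of at least 50, where 2 of 8 were above 0. It was 1.10 for genes with an FDR and 1.19 with the subunits under other names added. The muscle median of 0.03 lay between -0.02 and 0.10 in these settings. For the named genes with an FDR, 129 of 134 adjusted p-values under the alternatives did not pass 0.05, and the lowest was 0.424 in muscle and 0.0499 in bone. The 134 include the Bonferroni values, which could not pass where the FDR did not. No paired analysis was possible because the library columns carry no sample label, and leaving out replicates and the count-based tests were not run for the same reason. Depth is not given, so a value of 0 in bone has no upper limit here.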

Other observations

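Many mitochondrial ribosomal protein genes start close to another gene. In GENCODE vM21 a protein-coding gene on the opposite strand started within 1000 bases of 33 of the 78 (42.3%), beside 10.8% of all 22028 protein-coding genes. The partners included other mitochondrial genes. Mrpl36 and Ndufs6, a complex I subunit gene, start 29 bases apart, and Mrps12 and Sars2, the mitochondrial seryl-tRNA synthetase gene, 172 bases apart. Mrpl46 and Mrps11, both in the set, start 412 bases apart on chromosome 7. The authors listed both above 0 in bone, at 5.59 and 8.40 (p = 0.0764 and 0.00876), and neither was called there. Mrpl46 had no FDR in bone. The bone levels were 1.01 and 7.70, in a range where 84.3% of all genes were above 0. In muscle Mrpl46 was at 1.57 and Mrps11 was below 0 (p = 0.386 and 0.294 in the authors' table), and neither was called. The 33 genes had a median log2 fold change of 0.19 in muscle and 2.30 in bone, and the other 45 genes -0.02 and 1.19.

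Of the 25 genes whose promoter window held the ETS letters CCGGAAG, 7 were above 0 in muscle, the median log2 fold change from the authors being -0.27. Of the 44 windows without them, 26 genes were above 0, with a median of 0.22. In bone 16 of 22 and 25 of 39 genes with a p were above 0, with medians of 0.72 with the letters and 2.30 without them, so the shares and the medians were in opposite orders. This split was made after the values were seen, and the difference was not tested.

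The cytosolic ribosome is built from another set of genes, and 80 of these were read for comparison. Their median level in the authors' deposited tables was 1641 in muscle and 630 in bone. None was called in either tissue by the authors' test. An unadjusted p under 0.05 was found for 0 in muscle and 1 in bone (1.27%), beside 11.7% and 33.0% of all genes. Most of all genes had far lower levels. Among all genes with a level above 100, the shares at that p were 8.05% in muscle and 5.56% in bone. Fold changes of the cytosolic set were narrower than those of the mitochondrial set, which had lower levels. The median log2 fold change was -0.14 in muscle, where 19 of 79 (24.1%) were above 0. In bone it was 0.28, and 63 of 79 (79.7%) were above 0. Over all genes with a p, 53.5% were above 0 in muscle and 69.7% in bone. Among those with a level above 100, the shares were 49.97% and 51.6%. Beside genes of such levels, the cytosolic share was thus lower in muscle and higher in bone. These differences were not tested. The median approximate standard error of the cytosolic set was 0.29 in muscle and 0.68 in bone, beside 1.63 and 2.42 in the mitochondrial set.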
